A study of Mus musculus with 6 samples.

Results

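The 79 histone genes of a mouse interneuron expression table were examined, of 55335 genes in all. They were chosen by symbol: every gene named Hist1h to Hist4h, and 10 genes of variant histones (H3f3a, H3f3b, H2afz, H2afv, H2afx, H2afy, H2afy2, H2afj, H1f0 and H1fx), with pseudogenes left out. The first kind, 69 genes, is called replicative here and the second kind variant. All 6 libraries came from C57BL/6 embryos at embryonic day 14.5: primary GABAergic interneurons received an adeno-associated virus (AAV) for 12 hours, either AAV-scramble, the control (3 libraries), or AAV-shbrpf1 (3 libraries), which the series describes as a knockdown of Brpf1. Every library therefore came from infected cells, and no uninfected group was compared. Nothing in the labels ties the libraries of a group to separate cultures or animals, and the p-values below cover only how far these libraries scatter, part of which may be technical. The sources used here do not give the interval from infection to harvest, and another label calls the source neural progenitor cells. Brpf1 is a scaffold subunit of acetyltransferase complexes that modify histone H3, and the study asked what it does in the development and function of these neurons.

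Histones package DNA into nucleosomes, each built from pairs of H2A, H2B, H3 and H4, with the linker histone H1 at the DNA between them. Replicative histone genes lie in clusters, typically have no introns and are transcribed mainly in S phase. Their mRNAs typically end in a conserved stem-loop in place of a poly(A) tail. Variant histone genes lie alone, mostly carry introns and poly(A) tails, and are transcribed throughout the cell cycle, so that neurons, which no longer divide, rely on them to replace histones.

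The libraries held 13.1 to 21.1 M fragments, as implied by the smallest steps between values of single-exon genes, and 18780 to 26132 genes above 0. Brpf1 itself measured 3.29, 5.45 and 4.84 FPKM (fragments per kilobase of transcript, scaled to library depth) under AAV-scramble and 3.13, 4.58 and 3.78 FPKM under AAV-shbrpf1, in the order of replicate numbers 1, 2 and 3, the order used for all values here. The groups overlapped, and the means of 4.53 ± 1.11 and 3.83 ± 0.723 FPKM (SD, n = 3) did not differ beyond that spread (exact two-sided permutation test, p = 0.4; the smallest p that 3 against 3 can give is 0.1). Within replicate numbers, which pair the libraries, Brpf1 was lower with AAV-shbrpf1 in 3 of 3 pairs, with differences of -0.06, -0.21 and -0.29 on the log2(FPKM + 1) scale. A limma fit (linear models with moderated variances) across all genes tested, with the number as a block, did not call it (difference -0.18, 95% interval -0.44 to 0.07, unadjusted p = 0.127, adjusted p = 1.00). A gene counts as above the filter where the mean of either group reached 1 FPKM. All 8 markers of inhibitory neurons were above it, with Gad1, the GABA-synthesizing enzyme, at 94.1 to 177.3 FPKM. All 6 markers of glutamatergic neurons were under it, with Slc17a7 at no more than 0.0461 FPKM. Markers of progenitors and radial glia were present too: their summed level was 832.8, 269.4 and 709.7 FPKM under AAV-scramble and 873.9, 242.4 and 706.2 FPKM under AAV-shbrpf1, and Mki67, a marker of cycling cells, reached 2.33 to 9.84 FPKM.

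The stem-loop of a replicative histone mRNA is a 16-nt hairpin near its 3′ end, bound by the protein Slbp. It was searched for on the sense strand of the annotated transcripts (GENCODE M21) as the letters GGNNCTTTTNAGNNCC, with the 6 bases on each side of the loop required to pair. The letters with paired arms occurred in 50 of 55450 genes (0.0902%), and 45 of those 50 were among the 79 histone genes: 44 replicative genes and 1 variant gene, H2afx. The other 5 were Gm20634, H2bfm, Nova2, Syncrip and Trim17. Of these, Gm20634 and Trim17 overlap the histone genes Hist2h3c1 and Hist3h2a on the same strand. The hairpins of 5 replicative genes above the filter, of Hist1h4h and of H2afx are shown to set the shared letters beside the levels, with the hairpin in capitals and 5 flanking bases on each side.
Hist3h2ba: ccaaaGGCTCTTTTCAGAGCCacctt
Hist3h2a: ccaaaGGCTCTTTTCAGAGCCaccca
Hist1h1c: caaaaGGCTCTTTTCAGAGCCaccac
Hist2h3c2: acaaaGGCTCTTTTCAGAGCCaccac
Hist1h4i: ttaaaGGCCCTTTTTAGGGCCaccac
Hist1h4h: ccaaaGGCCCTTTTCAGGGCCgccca
H2afx: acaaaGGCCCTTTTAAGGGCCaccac
Cores were counted among the 79 histone genes only. The first 4 sequences share a core that 26 of these genes carry, and the core of Hist1h4h was found in 7, all of them H4. The core of Hist1h4i occurred in 1 other of the 79, Hist2h4, and that of H2afx in no other of them.

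The genes with this hairpin differed in how far the annotated transcript runs on behind it, and in level. In 22 replicative genes at most 100 nt follow the hairpin. None of these 22 reached a group mean of 1 FPKM, their median was 0.157 FPKM, and the highest was Hist1h4h at 0.6 FPKM (46 nt after the hairpin). Their summed level was 1.83, 3.48 and 5.74 FPKM under AAV-scramble and 1.85, 6.05 and 4.81 FPKM under AAV-shbrpf1. In the other 22 replicative genes with the hairpin more than 100 nt follow it, and their median was 0.257 FPKM. Of those, 7 reached 1 FPKM, among them Hist3h2ba (169 nt after the hairpin), Hist3h2a (1643 nt), Hist1h1c (840 nt), Hist1h4i (330 nt) and Hist2h3c2 (377 nt). Of the 25 replicative genes in whose annotated transcripts the hairpin was not found, 11 are annotated as coding sequence only, and Hist1h2bc and Hist2h2be reached 1 FPKM. H2afx, whose transcript continues for 822 nt behind the hairpin, had a mean above that of every replicative gene but Hist3h2ba. The sources used here do not state whether RNA with poly(A) tails was selected for the libraries. Of 17 small RNAs known to lack such a tail, 5 were measured above the filter, among them Rn7sk, a regulator of RNA polymerase II, at 7.81 to 39.8 FPKM.

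Replicative genes were mostly near the limit of detection and a few carried most of the signal. The median of their mean levels was 0.143 FPKM, against 33.9 FPKM for the variant genes. Of the 69, 57 had a mean under 0.5 FPKM, 6 were listed at 0 in every library (Hist1h2aa, Hist1h2ba, Hist2h2aa1, Hist2h2aa2, Hist2h2bb and Hist2h3b) and 42 were at 0 in some libraries. The highest value among the 60 genes under the filter was 1.3 FPKM, for Hist1h2ae in 1 library. At the implied depth, 50 of the 56 of these 60 with a single transcript had fewer than 10 fragments in every library, and the other 6 reached 10.5 to 19.9 fragments in their highest library, Hist1h1e having the most. The main comparison of the viruses left out the 60 genes. An alternative fit without the filter took in every gene with a value above 0. In it 0 histone genes and 0 of all genes passed. The gene clusters differed: the large Hist1 cluster had 4 of 56 genes above the filter, Hist2 had 3 of 10, Hist3 had 2 of 2 and the lone Hist4 gene, Hist4h4, was under it. Near-identical copies limit these values. The median replicative gene shared 34.7% of its 100-nt stretches with another gene, and 26 of the 69 shared at least 50%, so fragments could be divided among copies. Among the genes at 0 in every library, Hist2h2aa2 shared 100% and Hist2h2aa1 88.3%, while Hist1h2aa shared 0%. In the 56 single-transcript genes under the filter, 25 of 199 values above 0 were worth under 0.5 fragments at that depth. How fragments were divided was not tested.

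**Figure D1:**
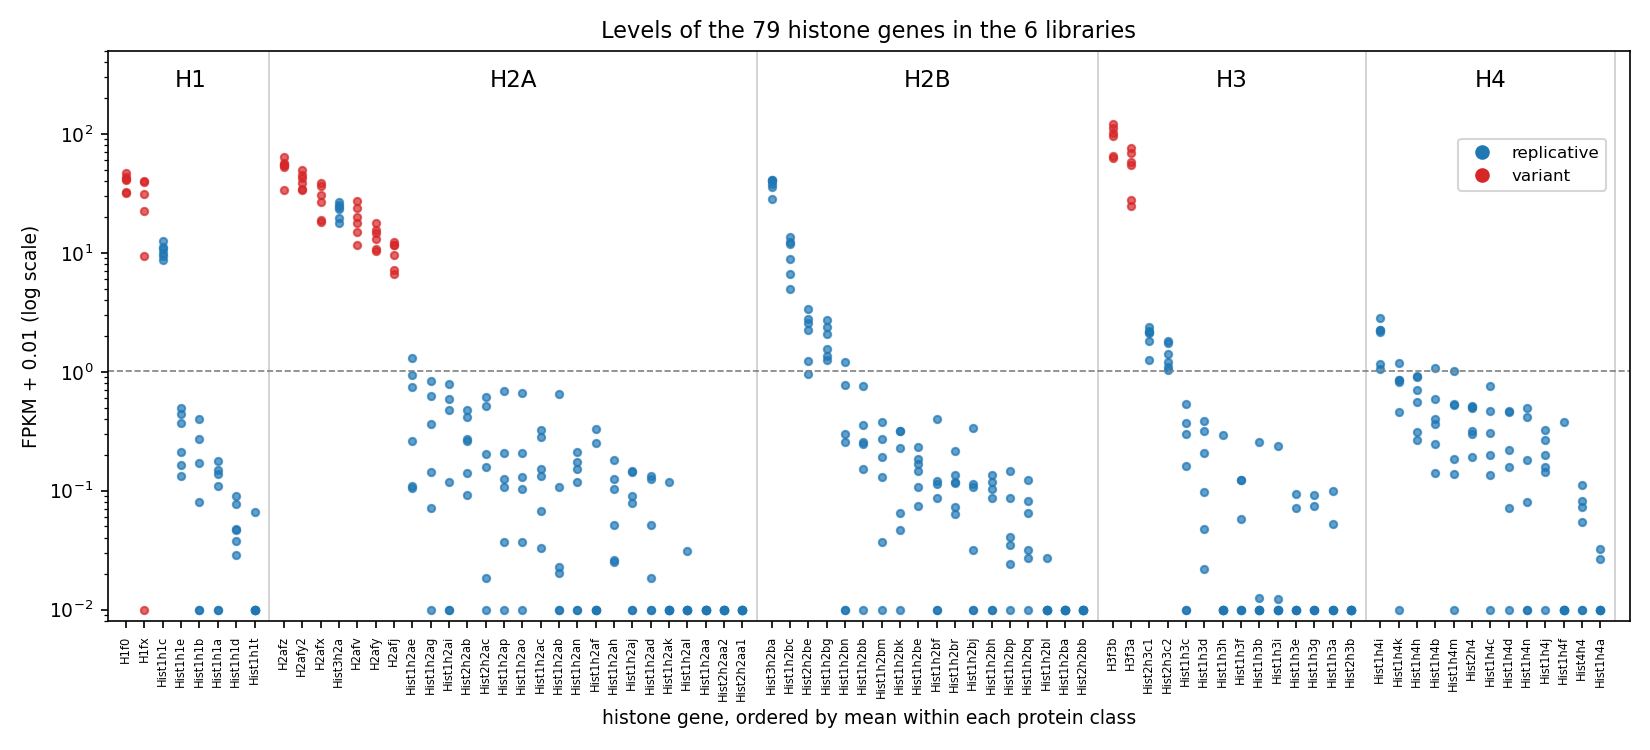
Level of each of the 79 histone genes in the 6 libraries, 1 point per library, as FPKM + 0.01 on a log scale, with genes grouped by protein class and ordered by mean. The dashed line marks 1 FPKM; all 10 variant genes (red) but only 9 of 69 replicative genes (blue) have a group mean above it, and points on the lowest level are values of 0.

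The highest replicative gene in each of the 6 libraries was Hist3h2ba, an H2B gene (chr11:58948920-58949533, GRCm38, plus strand). It measured 28.5, 40.6 and 40.4 FPKM under AAV-scramble and 37.8, 40.6 and 36.1 FPKM under AAV-shbrpf1, with AAV-scramble library 1 the lowest. Its neighbour on the same strand, the H2A gene Hist3h2a (chr11:58954685-58956830), followed at 25.5, 19.8 and 23.1 FPKM and at 26.5, 17.9 and 24.3 FPKM. Hist3h2a overlaps Trim17 on the same strand and shares 29.8% of its stretches with it, so its fragments cannot be fully told from those of Trim17. Hist3h2ba exceeded Hist3h2a in every library, by 1.12 to 2.27 times.

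Hist1h1c, a linker histone gene, measured 10.8, 9.42 and 12.6 FPKM under AAV-scramble and 8.63, 9.95 and 11.1 FPKM under AAV-shbrpf1, a narrow range in which the groups overlapped. Hist1h2bc, another H2B gene, measured 11.9, 6.57 and 12.4 FPKM and 13.5, 4.93 and 8.92 FPKM, with both number 2 libraries lowest. It shares 25.4% of its stretches with other genes, Hist1h2bg first among them. The 4 genes Hist3h2ba, Hist3h2a, Hist1h1c and Hist1h2bc made up 78.3% to 84.2% of the summed replicative level in a library. The remaining genes above the filter were much lower. Hist2h2be, also H2B, measured 2.25, 1.23 and 3.39 FPKM and 2.58, 0.956 and 2.76 FPKM, and the only H4 gene above the filter, Hist1h4i, 2.14, 1.04 and 2.24 FPKM and 2.21, 1.15 and 2.82 FPKM. In both genes the number 2 libraries were the lowest of each group. The replicative H3 genes above the filter were Hist2h3c1 and Hist2h3c2. Hist2h3c1 measured 2.18, 2.39 and 1.80 FPKM and 2.13, 1.24 and 2.12 FPKM, and Hist2h3c2 1.03, 1.80 and 1.74 FPKM and 1.08, 1.19 and 1.40 FPKM, with overlapping groups in both. All stretches of Hist2h3c1 occur in another gene, first of all Gm20634, which overlaps it on the same strand, and 61.6% of those of Hist2h3c2 occur in Gm20634, Hist2h3c1 or Hist2h3b, so the values of both are uncertain. The last of the 9, the H2B gene Hist1h2bg, falls outside the rule for naming genes and is named for completeness; its mean was 1.88 FPKM.

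All 10 variant genes were above the filter, and the H3.3 genes led. H3f3b (chr11:116021912-116027962, minus strand) and H3f3a (chr1:180800832-180813943, minus strand) both encode H3.3, the form of H3 placed into chromatin outside of replication. H3f3b measured 102.7, 62.3 and 120.5 FPKM under AAV-scramble and 95.7, 65.2 and 112.6 FPKM under AAV-shbrpf1, and was the highest of the 79 histone genes in every library. H3f3a measured 54.7, 24.8 and 76.2 FPKM and 58.5, 27.5 and 68.4 FPKM. In both genes the number 2 libraries were lowest and the number 3 libraries highest, with either virus. H3f3b exceeded H3f3a by 1.58 to 2.51 times, the ratio being highest in the number 2 libraries. H3f3a shares 7.73% of its stretches with other genes, H3f3c first among them, and overlaps the antisense gene H3f3aos.

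Among the H2A variants, H2afz encodes H2A.Z, found at promoters. It measured 57.1, 33.4 and 63.6 FPKM under AAV-scramble and 55.1, 52.6 and 54.5 FPKM under AAV-shbrpf1, with AAV-scramble library 2 apart from the others; 29.7% of its stretches occur in Gm8203 and Gm13007. The second H2A.Z gene, H2afv, was lower in every library at 11.6, 17.7 and 27.5 FPKM and 14.9, 20.1 and 23.8 FPKM, and the ratio of H2afz to H2afv ran from 1.89 to 4.91. H2afx, which encodes the H2A that is phosphorylated at DNA breaks, measured 18.3, 36.3 and 30.8 FPKM and 18.7, 38.9 and 26.7 FPKM, lowest in the number 1 and highest in the number 2 libraries. The macroH2A genes, whose proteins carry a large domain besides the histone fold, stood in a stable relation, with H2afy2 exceeding H2afy by 2.64 to 3.33 times. H2afy2 measured 34.4, 43.0 and 49.2 FPKM and 34.0, 38.6 and 45.4 FPKM. H2afy measured 10.3, 12.96 and 17.7 FPKM and 10.8, 14.6 and 15.4 FPKM. Both were lowest in the number 1 and highest in the number 3 libraries of each group. H2afj was the lowest variant gene by mean, at 6.63, 11.6 and 11.6 FPKM and 7.17, 12.4 and 9.57 FPKM.

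Among the linker variants, H1f0, typical of cells that have stopped dividing, measured 43.7, 32.6 and 46.9 FPKM under AAV-scramble and 41.6, 32.0 and 40.9 FPKM under AAV-shbrpf1, and exceeded Hist1h1c by 3.22 to 4.82 times. H1fx was listed at 0 in AAV-scramble library 1 and measured 40.3 and 31.2 FPKM in the other two AAV-scramble libraries and 9.48, 39.7 and 22.6 FPKM with AAV-shbrpf1. Both number 1 libraries were thus the lowest of their group. Over all genes, 22, H1fx among them, were at 0 in 1 library or more and at 5 FPKM or more in another. Whether the 0 of H1fx is a failed estimate was not tested. Ordered by mean, the variant genes ran H3f3b, H2afz, H3f3a, H2afy2, H1f0, H2afx, H1fx, H2afv, H2afy and H2afj, and the ranges of every neighbouring pair in that order overlapped.

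Summed by protein class, variant genes supplied most of the H3, H2A and H1 signal. Their share of the summed FPKM was 94.4% to 98% for H3, 83.7% to 88.7% for H2A and 79.5% to 87.9% for H1 over the 6 libraries. H2B and H4, which have no gene among the variants here, rested on replicative genes alone, with sums of 45.9 to 61.1 FPKM for H2B and 3.82 to 7.47 FPKM for H4. The summed replicative level was 99.03 ± 12.2 FPKM under AAV-scramble and 98.5 ± 6.05 FPKM under AAV-shbrpf1 (SD, n = 3), and the summed variant level 376.5 ± 86.3 and 369.1 ± 43.9 FPKM. In both sums the difference between the viruses was smaller than either SD. Replicative genes made up 19.2% to 22.9% of the histone total. H3f3c, a variant gene outside the chosen set, is not in the H3 sums. The sources used here do not state whether RNA with poly(A) tails was selected, which bears on mRNAs that end in the stem-loop. The part of such selection in these shares and sums was not tested. A bulk level cannot tell fewer cells of a type from less RNA per cell.

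**Figure D2:**
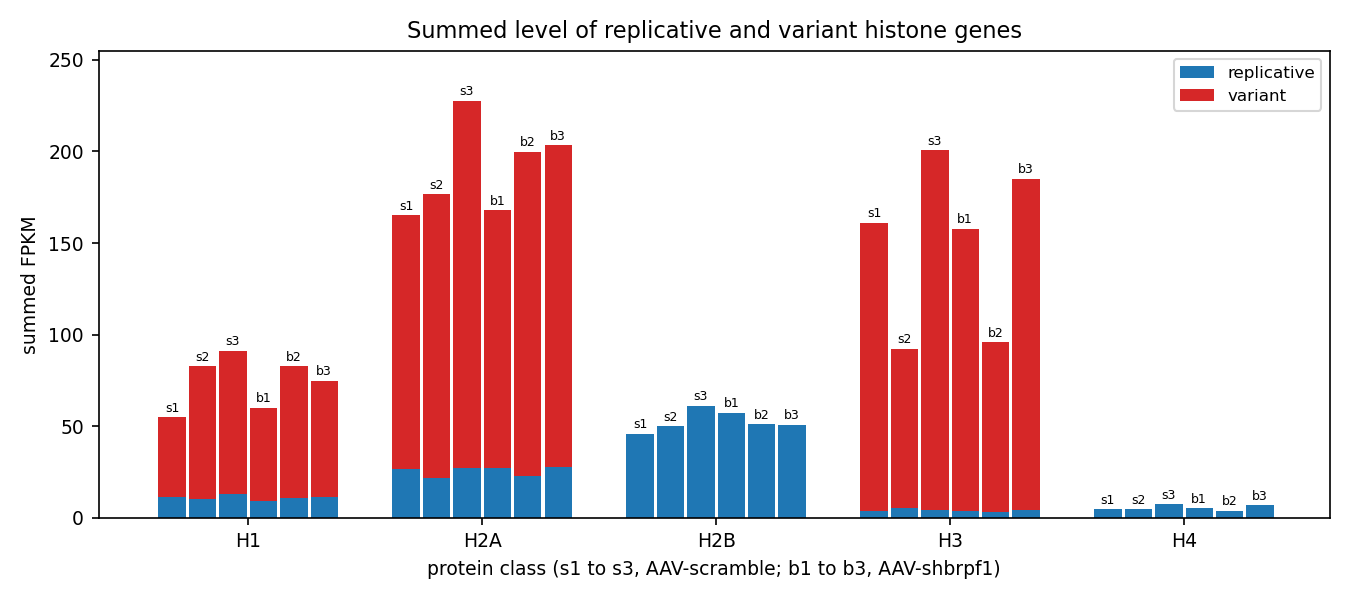
Summed FPKM of replicative (blue) and variant (red) histone genes for each protein class, 1 bar per library (s, AAV-scramble; b, AAV-shbrpf1; numbers are replicate numbers). The H3 bars of the number 2 libraries are the lowest with either virus, at 92.7 FPKM or less from the variant genes, and the H2B and H4 bars hold replicative genes only.

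Promoter sequence from RefSeq (GRCm38.p6, 250 bases before to 50 after the start) was matched for 71 of the 79 genes, with 72 promoters. Short strings were searched for on both strands. The box bound by the factor NF-Y was spelled CCAAT. The TATA box, which places the start of transcription, was spelled as the letters TATAAA. The octamer of H2A and H2B promoters, bound by Oct-1, was searched for as ATTTGCAT. Each string was counted separately, so matches of different strings may share bases. CCAAT occurred in 54 of 63 replicative promoters (85.7%), in 6 of 9 variant promoters and in 37.4% of all 32851 promoters. All replicative H1, H2A, H2B and H3 promoters held it, against 3 of 12 H4 promoters. TATAAA occurred in 35 replicative promoters (55.6%), in 1 variant promoter (H3f3b) and in 13.6% of all promoters. The octamer occurred in 7 of 18 H2A and 7 of 17 H2B promoters, in no other replicative promoter, in H3f3b alone among the variants and in 1.74% of all promoters. H3f3b, the highest variant gene, thus carries all 3 of these strings, and H3f3a, which encodes the same protein, carries 1 CCAAT. Both are shown with the promoters of the Hist3 pair and of Hist1h4i, with the matches in capitals, written along the gene's strand.
H3f3b, chr11:116024455-116024754, minus strand: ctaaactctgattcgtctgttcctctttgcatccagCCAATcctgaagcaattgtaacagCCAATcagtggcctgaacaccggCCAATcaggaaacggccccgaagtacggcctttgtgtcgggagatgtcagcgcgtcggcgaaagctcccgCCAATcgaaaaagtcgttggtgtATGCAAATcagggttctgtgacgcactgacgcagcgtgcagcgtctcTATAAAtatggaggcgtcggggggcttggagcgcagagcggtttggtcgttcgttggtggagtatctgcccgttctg
H3f3a, chr1:180813556-180813855, minus strand: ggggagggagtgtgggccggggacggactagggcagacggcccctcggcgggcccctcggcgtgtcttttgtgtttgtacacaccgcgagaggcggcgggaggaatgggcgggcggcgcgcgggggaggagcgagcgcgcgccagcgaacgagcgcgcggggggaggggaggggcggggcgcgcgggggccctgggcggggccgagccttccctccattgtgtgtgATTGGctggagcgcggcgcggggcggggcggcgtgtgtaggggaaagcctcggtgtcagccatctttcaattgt
Hist3h2ba, chr11:58948661-58948960, plus strand: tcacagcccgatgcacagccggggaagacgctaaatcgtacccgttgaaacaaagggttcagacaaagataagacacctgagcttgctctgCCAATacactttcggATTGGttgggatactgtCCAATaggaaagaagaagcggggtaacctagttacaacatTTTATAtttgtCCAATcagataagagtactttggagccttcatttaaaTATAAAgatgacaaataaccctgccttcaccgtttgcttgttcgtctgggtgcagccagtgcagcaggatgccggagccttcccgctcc
Hist3h2a, chr11:58954435-58954734, plus strand: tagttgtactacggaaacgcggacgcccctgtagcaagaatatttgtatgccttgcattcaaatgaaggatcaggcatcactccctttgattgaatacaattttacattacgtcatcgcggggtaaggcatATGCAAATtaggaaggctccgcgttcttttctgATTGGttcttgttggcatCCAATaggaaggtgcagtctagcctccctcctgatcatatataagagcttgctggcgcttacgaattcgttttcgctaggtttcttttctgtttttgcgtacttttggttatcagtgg
Hist1h4i, chr13:22041313-22041612, minus strand: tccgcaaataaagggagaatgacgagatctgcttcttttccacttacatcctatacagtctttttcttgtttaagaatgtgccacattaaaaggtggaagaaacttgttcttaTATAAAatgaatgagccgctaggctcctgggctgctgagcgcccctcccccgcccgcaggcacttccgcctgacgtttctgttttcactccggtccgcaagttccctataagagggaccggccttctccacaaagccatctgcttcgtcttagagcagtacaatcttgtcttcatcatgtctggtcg
The H3f3b sequence has 4 CCAAT matches and the H3f3a sequence 1, written as ATTGG. Hist3h2ba has 4 CCAAT and 2 TATAAA matches, Hist3h2a has 2 CCAAT matches and 1 octamer, and Hist1h4i has 1 TATAAA match and no CCAAT. These matches describe the letters only.

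AAV-shbrpf1 was compared with AAV-scramble to see whether histone transcripts changed with the virus directed at Brpf1. No histone gene passed the test, in either kind. The comparison was made with limma on log2(FPKM + 1) over the 12792 genes whose mean reached 1 FPKM with either virus, which took in 19 histone genes, 9 replicative and 10 variant. At a Benjamini-Hochberg adjusted p under 0.05, 0 of the 19 and 0 of all 12792 genes passed (0%). At an unadjusted p under 0.05 there were 23 genes, 0 of them histone genes. Blocking by replicate number also gave 0 genes (smallest adjusted p of all genes 0.404), and 280 genes but 0 histone genes had an unadjusted p under 0.05. The groups did not overlap in 0 of the 19 histone genes and in 137 of all genes (1.07%).

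The differences, given as log2(FPKM + 1) with AAV-shbrpf1 minus AAV-scramble, were small beside their errors in the fit without the block. Errors and intervals here and in the next paragraph are from that fit unless stated. They include the spread between replicate numbers. The median difference was -0.03 over the 19 histone genes and -0.02 over all genes tested. For the 9 replicative genes it was -0.13, from -0.21 to 0.12, with 2 means higher and 7 lower. For the 10 variant genes it was -0.01, with 5 higher and 5 lower. H3f3b differed by -0.04 ± 0.35 (SE; 95% interval -0.86 to 0.77) and H3f3a by 0.03 ± 0.50 (-1.14 to 1.19). Blocking by replicate number narrowed the intervals to -0.25 to 0.16 for H3f3b and -0.20 to 0.26 for H3f3a. Hist3h2ba differed by 0.08 ± 0.24 (-0.48 to 0.64), and Hist1h2bc, the replicative gene with the lowest difference, by -0.21 ± 0.39 (-1.12 to 0.71). The adjusted p was 1.00 for each of the 19 genes.

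H2afz and H1fx had the most positive differences among the variant genes, and in each a single library set the value. H2afz differed by 0.12 ± 0.29 (95% interval -0.56 to 0.81), with 0.64 within number 2 and -0.05 and -0.22 within numbers 1 and 3; without AAV-scramble library 2 the difference was -0.15. H1fx differed by 0.97 ± 1.36 (-2.22 to 4.17), with 3.39 within number 1, where AAV-scramble is listed at 0, and -0.02 and -0.45 within numbers 2 and 3. Without that library the difference of H1fx was -0.76. Within replicate numbers, Hist1h4i was higher with AAV-shbrpf1 in 3 of 3 pairs, by 0.03, 0.08 and 0.24, and H1f0 and H2afy2 were lower in 3 of 3; the other 16 histone genes went both ways. One sign in all pairs was thus seen in 15.8% of the histone genes and in 18.4% of all genes tested.

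**Figure D3:**
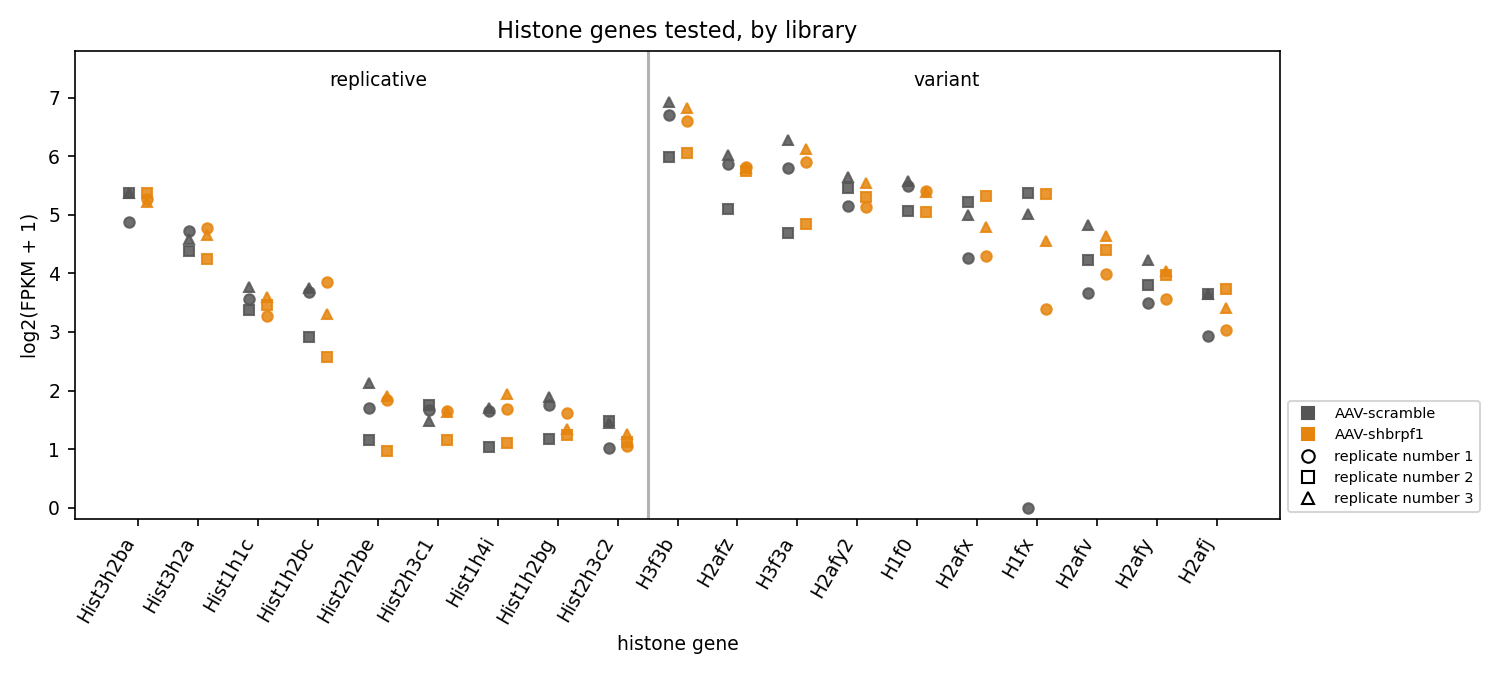
Level of the 19 histone genes tested, as log2(FPKM + 1), with grey for AAV-scramble, orange for AAV-shbrpf1 and a marker shape for each replicate number. The 2 colours overlap in every gene; squares (number 2) lie lowest in H3f3b, H3f3a and Hist1h2bc, and circles (number 1) lie lowest in H2afx, H1fx and H2afj.

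**Figure D4:**
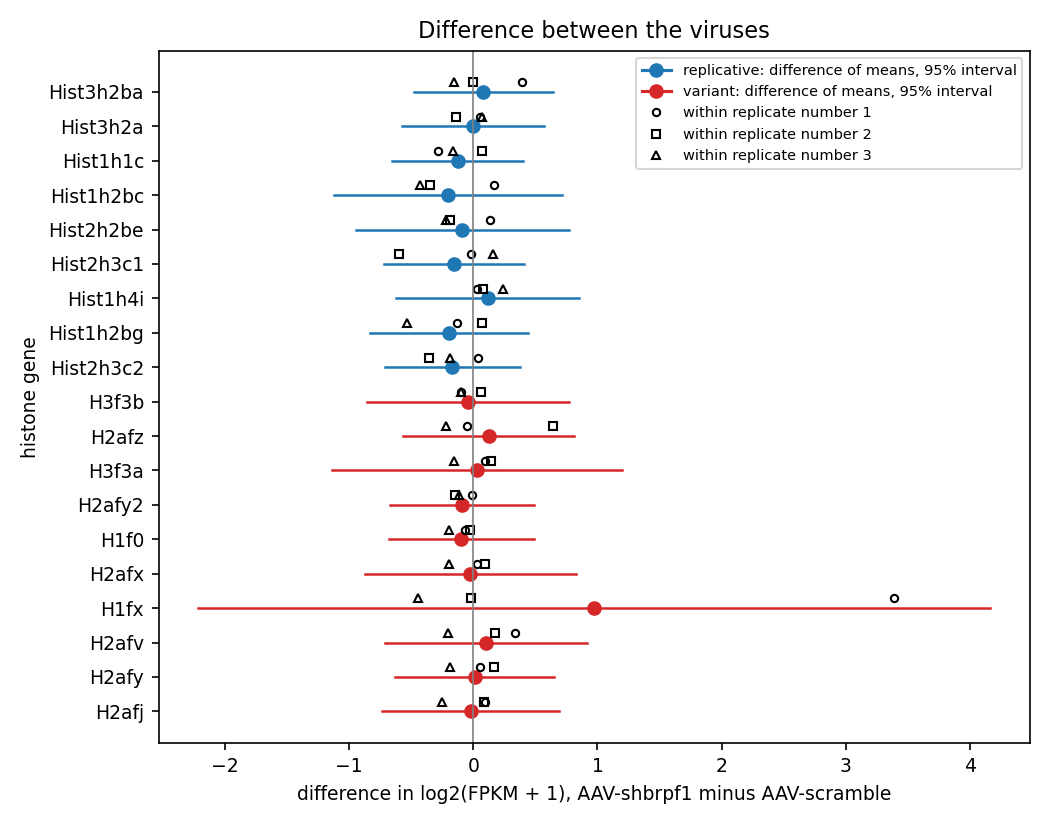
Difference in log2(FPKM + 1), AAV-shbrpf1 minus AAV-scramble, for each of the 19 histone genes tested, with the 95% interval from limma (filled points and lines; blue replicative, red variant) and the difference within each replicate number (open markers). Every interval includes 0, and that of H1fx, from -2.22 to 4.17, is the widest. The intervals are from the fit without the replicate block and include the spread between replicate numbers.

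Most of the histone genes tested differed between replicate numbers. The numbers in the labels are shared by both groups, and what a number stands for is left unsaid there. An F test in limma between the 3 numbers, with the virus in the model, called 8876 of the 12792 genes (69.4%) and 13 of the 19 histone genes (68.4%), so the histone genes were called about as often as the rest. By kind, it called 9 of 10 variant genes, all but H2afz, and 4 of 9 replicative genes, Hist1h2bc, Hist2h2be, Hist1h4i and Hist3h2a. Whether the kinds differ in this was not tested.

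By mean log2 level, the 13 genes were lowest either in number 2 or in number 1. All 4 replicative genes called, with H3f3a, H3f3b and H1f0, were lowest in number 2. H3f3a was 1.08 lower on the log2 scale in number 2 than in number 1 (written as number 2 minus 1, -1.08; adjusted p = 0.00227) and H3f3b differed by -0.63 (adjusted p = 0.00322). Hist1h2bc differed by -1.03 (adjusted p = 0.00777), Hist2h2be by -0.71 (0.00727), Hist1h4i by -0.60 (0.0111), Hist3h2a by -0.45 (0.0245) and H1f0 by -0.39 (0.0178). The remaining 6 variant genes were lowest in number 1. H2afx differed by 0.98 (adjusted p = 0.00318), H2afj by 0.71 (0.0105), H2afv by 0.49 (0.00837), H2afy by 0.36 (0.0169), H2afy2 by 0.25 (0.0185) and H1fx by 3.66 (0.0258). The value of H1fx rests on the 0 in AAV-scramble library 1: within AAV-scramble number 2 minus 1 was 5.37 and within AAV-shbrpf1 1.96, and without that library the fitted difference was 1.85 (limma, adjusted p = 0.0277). Values of 0.16 for H2afz, 0.159 for Hist1h1c, 0.242 for Hist3h2ba, 0.694 for Hist2h3c1, 0.228 for Hist2h3c2 and 0.109 for Hist1h2bg are the adjusted p of the 6 genes that did not pass.

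The counts of histone genes and of all genes both fell without number 1 or number 2. Without both libraries of number 1, 6 of 20 histone genes passed, against 31.8% of all genes tested: H3f3a, H3f3b, H1fx, Hist1h2bc, Hist2h2be and Hist1h4i. Without both libraries of number 2, 6 of 19 passed, against 39% of all genes: H2afx, H2afj, H2afv, H2afy, H2afy2 and H1fx. Without both libraries of number 3, 13 of 19 passed, against 66% of all genes. Leaving out AAV-scramble library 1 alone left 6 histone genes, H3f3a, H3f3b, H2afx, H1fx, Hist1h2bc and Hist2h2be. Of all genes, 4793 passed then, against 8876 with every library, and the difference of H2afv moved to 0.315. Leaving out AAV-shbrpf1 library 1 alone left 7 histone genes and 5331 of all genes. Leaving out any other single library left 12 to 14 histone genes and 7990 to 8885 of all genes.

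The difference between numbers 2 and 1 moved with the base composition of the transcript. Over 12785 genes, the GC content of the longest annotated transcript and the difference of number 2 minus 1 correlated at r = 0.742 (Spearman's rho 0.769). Over the 19 histone genes the values were r = 0.845 and rho 0.753, and without H1fx r = 0.725 and rho 0.709 over 18 genes. These are descriptions across genes, which share the same 4 libraries and are not independent replicates. The 7 genes lowest in number 2 had 43.2% (H3f3a) to 52.8% (Hist1h4i) GC, and the 6 lowest in number 1 had 47.2% (H2afv) to 71.3% (H1fx). The transcript of H1fx is richer in GC than 99.9% of genes tested and that of H2afx, at 62.3%, than 98.3%, while that of H3f3a is richer than 16.2%. The summed level of the progenitor markers given above was also lowest in number 2. Most of that sum was Fabp7, the most abundant of them. Fabp7 measured 729.6, 187.3 and 580.8 FPKM under AAV-scramble and 758.3, 168.5 and 569.9 FPKM under AAV-shbrpf1. Over the 6 progenitor markers tested, the median of number 2 minus 1 was -0.504 and the median of its absolute size 0.637, so the signs were mixed. Other marker lists moved with the numbers too. Summed over 5 markers of the oligodendrocyte lineage, the level was 108.9, 215.6 and 270.3 FPKM under AAV-scramble and 124.8, 204.8 and 254.6 FPKM under AAV-shbrpf1. Over the 8 markers of inhibitory neurons it was 639.4, 1031 and 1098 FPKM and 674.5, 908.5 and 860.7 FPKM. Both sums were lowest in number 1, as were the 6 variant genes above. The inhibitory markers did not move together. By mean, 2 of the 8 were highest in number 1, Gad1 among them, 2 in number 2 and 4 in number 3. Summed over 5 astrocyte markers, the level was 115.4, 119.4 and 168 FPKM under AAV-scramble and 124.8, 112.6 and 161.5 FPKM under AAV-shbrpf1, highest in number 3. The sum over 5 endothelial and mural markers was 12.6 and 12.3 FPKM in the number 1 libraries and at most 0.925 FPKM in the others; nearly all of it was Acta2, a smooth muscle actin, at 11.5 and 11.6 FPKM, while Pecam1 and Cldn5 were at 0.322 FPKM or less in every library. The part of base composition and of these cell types in the histone values was not tested.

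**Figure D5:**
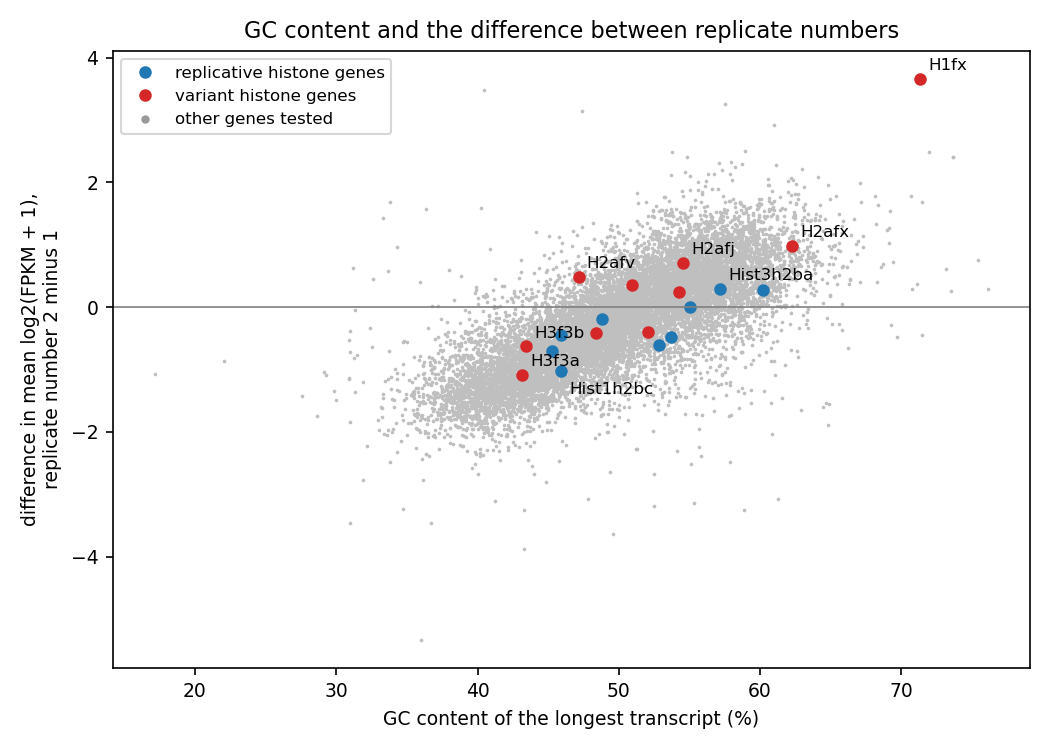
GC content of the longest annotated transcript (%) against the difference in mean log2(FPKM + 1) of replicate number 2 minus 1, 1 point per gene tested (grey), with replicative (blue) and variant (red) histone genes. H3f3a, at 43.2% GC, lies at -1.08, H2afx, at 62.3%, at 0.98 and H1fx, at 71.3%, at 3.66, a value that rests on the 0 in AAV-scramble library 1 (1.96 within AAV-shbrpf1).

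Genes that make and process histone mRNA did not pass in the comparison of the viruses either: 0 of 25 tested in that list, with a median difference of -0.04. Slbp, the stem-loop binding protein, measured 3.49, 2.16 and 3.14 FPKM under AAV-scramble and 3.88, 1.68 and 2.99 FPKM under AAV-shbrpf1. Npat, the activator of replicative histone transcription, measured 5.92, 1.89 and 2.99 FPKM and 5.75, 1.49 and 3.80 FPKM. Both were lowest in the number 2 libraries, as were the 4 replicative genes called between numbers; both genes are named for their role and not by the naming rule. By that rule, the most abundant of the list, Snrpd3 of the Sm core, had 18.3 to 27.3 FPKM. Between numbers, 17 of the 25 passed, against 69.4% of all genes. Cstf2, a cleavage factor, differed by -1.61 for number 2 minus 1 (adjusted p = 0.00227), and Upf1, which takes part in the decay of histone mRNA, rose from 11.9 and 11.7 FPKM in the number 1 libraries to 27.6 and 27.3 FPKM in number 2 (adjusted p = 0.00236).

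The chaperones that carry histones to chromatin gave the same count for the viruses. Of 10 genes of the replication-coupled chaperones 0 passed, and 6 (60%) passed between numbers, against 69.4% of all genes; Nasp, which holds H3 and H4, measured 14.2, 4.59 and 8.74 FPKM under AAV-scramble and 12.7, 3.52 and 8.79 FPKM under AAV-shbrpf1. Of 30 genes of the replication-independent chaperones 0 passed, and 22 (73.3%) passed between numbers, close to the same 69.4%. Npm1 measured 91.7, 25.5 and 39.8 FPKM and 83.5, 17.6 and 39.5 FPKM, lowest in number 2, while Cabin1, of the complex that places H3.3, measured 6.55, 19.3 and 10.2 FPKM and 6.69, 20.3 and 10.1 FPKM, highest in number 2.

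Genes of S phase were measured in every library, although most replicative histone genes were not. All 30 genes of the S phase list were above the filter, and their summed level was 145.4, 134.1 and 190.6 FPKM under AAV-scramble and 149.7, 133.4 and 166.2 FPKM under AAV-shbrpf1. Pcna, the sliding clamp of DNA polymerase, measured 27.0, 11.6 and 24.5 FPKM and 26.0, 10.1 and 20.95 FPKM, and Rrm2, a subunit of ribonucleotide reductase, 13.2, 13.3 and 18.1 FPKM and 14.2, 13.004 and 15.6 FPKM. In the comparison of the viruses 0 of the 30 passed, and between numbers 16 did (53.3%, against 69.4% of all genes). Of 10 further histone variant genes outside the chosen set that were found in the table, 2 were above the filter and the other 8, among them H2bfm, were under it. H3f3c measured 20.4, 7.48 and 20.0 FPKM and 18.9, 10.04 and 21.2 FPKM, lowest in number 2 as H3f3a was. H3f3c shares stretches with H3f3a, so the values of these genes may not be independent. Cenpa, the H3 of centromeres, measured 1.11 to 1.93 FPKM.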

How the data were processed

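Total RNA of 6 samples of infected cells was sequenced as paired ends (Illumina HiSeq), per the labels' protocols. The authors deposited 1 table with a value per gene and library and no unit in its header. The deposited values were taken to be FPKM: they have decimals, their totals differ between libraries, and low values step with transcript length. The submitters' processing notes list FastQC, StringTie and DESeq2, with no versions; no aligner, strand setting or RNA selection is given in the sources used here. The notes name mm9, but 54899 of 55154 gene identifiers found in GENCODE M21, all 79 histone genes included, have GRCm38 starts and ends, so GRCm38 is given.

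Columns were matched to samples by group and replicate number. A gene was tested if either group's mean reached 1 FPKM (12792 genes). The test was limma 3.58.1 (R 4.3.3) on log2(FPKM + 1) with a mean-variance trend, two-sided, with no covariates and a Benjamini-Hochberg threshold of 0.05. The added 1 makes changes of low genes look smaller. Deviations from the group means correlated at 0.866, 0.829 and 0.574 between libraries of numbers 1, 2 and 3, so the numbers were taken to pair the samples. Across numbers the correlation was at most 0.00199. That value is no separate evidence, since deviations from a group mean cancel within the group. Script steps were tested on simulated data. Shared stretches are 100-nt windows of a gene's transcripts found on the sense strand of another gene. Depth per library was taken from the most common small product of value and length in 11673 single-exon genes, read as 1 fragment.

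The genes named are Brpf1, all variant genes, up to 3 of the most abundant replicative genes above the filter per protein class, and from each list the 2 most abundant and the 2 with the smallest p between numbers. The histone genes, the lists and the tests were chosen with earlier results of these data known. Alternatives were other pseudocounts, filters and scalings, the replicate block and leaving out libraries.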

Additional observations from a re-analysis of the deposited data

How the results depend on the processing

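For the comparison of the viruses, limma called 0 genes under every pseudocount (0.1, 0.5), filter, scaling and left-out library and in the fit with a replicate block (0 genes, 0 histone genes), except for the block on 2 pairs: 8 genes without replicate number 2 and 1, Cx3cl1, without number 3, no histone gene among them; the cause was not tested. The block changed no other call. Over 284 alternative values of 18 named histone genes, 237 kept their direction, 47 reversed and 0 passed; the smallest adjusted p was 0.782. Between numbers, requiring a mean of 5 FPKM left fewer genes to test and 5493 calls against 8876. Leaving out libraries (chosen after seeing the data) gave 3943 to 8885 genes and 6 to 14 histone genes: 6 without both libraries of number 1 (3943 genes) or of number 2 (5137 genes), and 4793 genes without AAV-scramble library 1.

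Directions of single genes were not stable. Hist3h2a was 0.03 (0.0258) under quantile normalization. With the block and without number 1 the log2 differences were -0.011 for H2afy, -0.0143 for H2afv, -0.234 for H1fx, -0.00521 for H3f3a and -0.0797 for Hist3h2ba. Without number 2 they were -0.0661 for H2afy, -0.134 for H2afz, -0.029 for H3f3a, 0.0619 for Hist3h2a and 0.0678 for Hist2h3c1, and without number 3, 0.0621 for H2afx and 0.0931 for H2afj. Leaving out 1 library at a time gave ranges of -0.16 to 0.201 for H2afy, -0.32 to 0.177 for H3f3b, -0.189 to 0.398 for H2afv, -0.755 to 1.93 for H1fx, -0.115 to 0.157 for Hist3h2a and -0.0858 to 0.162 for Hist3h2ba. The ranges were -0.154 to 0.3 for H2afz, -0.304 to 0.226 for H2afx, -0.262 to 0.158 for H2afj, -0.419 to 0.419 for H3f3a, -0.0996 to 0.35 for Hist1h4i and -0.23 to 0.0229 for H2afy2. They were -0.251 to 0.0225 for H1f0, -0.344 to 0.212 for Hist2h2be, -0.511 to 0.133 for Hist1h2bc and -0.236 to 0.00672 for Hist2h3c1. Hist1h1c and Hist2h3c2 were lower with AAV-shbrpf1 under every alternative run.

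Without Hist3h2ba the summed replicative level was 62.5 FPKM in the AAV-scramble and 60.4 FPKM in the AAV-shbrpf1 libraries, and without H3f3b the summed variant level 281.4 and 278 FPKM. At 13.1 to 21.1 M fragments, 50 of the 56 replicative genes under the filter with a single transcript had fewer than 10 fragments in every library. The main comparison left out all 60 under it. Values of genes with near-identical copies depend on how fragments were divided.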

Other observations

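Genes of acetyltransferases of histone H3 and of the complexes that hold Brpf1 were measured too. All 13 were above the filter, 0 passed for the viruses and 11 (84.6%) passed between replicate numbers, against 69.4% of all genes tested. Kat2a, an acetyltransferase of H3, measured 18.4, 39.3 and 23.7 FPKM under AAV-scramble and 17.8, 37.0 and 22.9 FPKM under AAV-shbrpf1, highest in number 2. Kat6a, a partner of Brpf1, measured 18.0, 10.8 and 21.3 FPKM and 16.0, 9.77 and 24.2 FPKM, lowest in number 2. Of 18 mitosis genes 0 passed for the viruses and 12 (66.7%) between numbers, against the same 69.4%, with Top2a, which untangles DNA, at 10.7, 4.26 and 11.9 FPKM and 12.7, 3.16 and 12.1 FPKM.

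A pair of genes that act on histones or their mRNA had small unadjusted p-values for the viruses once the replicate number was a block; both were chosen after their values were seen, and neither passed after adjustment (limma, adjusted p = 1.00). Lsm10, of the particle that cuts replicative histone mRNA, measured 6.38, 10.5 and 6.51 FPKM under AAV-scramble and 8.73, 13.7 and 10.4 FPKM under AAV-shbrpf1. It was higher in 3 of 3 pairs, by 0.40, 0.36 and 0.60 on the log2(FPKM + 1) scale (unadjusted p = 0.00353). Anp32e, a chaperone that removes H2A.Z, measured 25.4, 13.8 and 26.3 FPKM and 36.2, 22.0 and 26.3 FPKM, higher in 3 of 3 pairs, by 0.49, 0.64 and 0.0045 (unadjusted p = 0.0352). Over all genes tested, 280 had an unadjusted p under 0.05 with the block.

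The 5 RNAs without a poly(A) tail that were above the filter were highest in the number 2 libraries with either virus. All 5 passed between numbers, against 69.4% of all genes tested. Their median GC content was 62.3%, against 49.8% for all genes tested. The part of base composition or of RNA selection in this was not tested. Rn7sk measured 9.01, 39.8 and 7.81 FPKM under AAV-scramble and 7.99, 36.6 and 10.5 FPKM under AAV-shbrpf1.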
